A study of Mus musculus with 12 samples.

Results

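The adult globin genes and the genes of haem synthesis were described in 12 bulk RNA-seq libraries of 3 blood progenitor types sorted from mouse bone marrow. Of 9 genes listed by symbol, 8 were found among the 38924 genes of the deposited table by their Ensembl identifiers. They were the beta globins Hbb-bs and Hbb-bt, the alpha globins Hba-a1 and Hba-a2, and the haem enzymes Alas1, Alas2, Alad and Fech. Ahsp, which encodes a chaperone of free alpha globin, is not analysed here. All libraries came from female wild-type mice of the inbred strain C57Bl/6J, and no age of the donors is stated. Lymphoid-primed multipotent progenitors (LMPP) were gated as Lin- Sca1+ cKit+ CD150- CD34+ Flk2hi, common lymphoid progenitors (CLP) as Lin- Sca1lo cKitlo IL7Ra+ Flk2+, and granulocyte-monocyte progenitors (GMP) as Lin- Sca1- cKit+ CD150- CD34+ FcgR+. The depletion that preceded every gate included TER-119, an antigen of red cells and their late precursors, and CD11b and Gr-1 of mature myeloid cells. The sample titles give 2 batches, each with 2 libraries of each type. No label ties a library to an animal or a culture, so p-values measure only how far these samples spread, which may be technical.

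Haemoglobin is a tetramer of alpha and beta globin chains, each holding a haem group, and red cell precursors make globin and haem in step. Haem synthesis starts in the mitochondrion, where aminolaevulinate synthase joins glycine to succinyl-CoA. Most cells use the form encoded by Alas1, and red cell precursors use the X-linked form encoded by Alas2. Alad acts next, in the cytosol, followed by other cytosolic steps that end with Uros and Urod, and the path returns to the mitochondrion for Cpox, Ppox and Fech, the ferrochelatase that inserts iron. The sorted types are not red cell precursors, and the data were used to ask whether globin transcripts stood high together with these enzymes or without them.

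Values are in TPM, which are scaled for transcript length and fixed to the same total in each library, so that they give shares and not amounts. In bulk RNA, fewer cells of a type and less RNA per cell cannot be told apart. A pair of libraries stood apart and is called the haemoglobin-rich pair. LMPP batch 2 replicate 1 and CLP batch 2 replicate 1 had 28085 and 13392 TPM of the 4 globins together, against 35.7 to 2439 TPM in the other 10 libraries. Both CLP libraries of batch 2 went against their Flk2+ gate in the transcript of Flt3, which encodes Flk2, with 8.91 and 17.0 TPM, while those of batch 1 had 138 and 146 TPM. In CLP batch 1 replicate 2 the B lineage gene Cd79a stood at 0.82 TPM, against 83.8 to 345 TPM in the other CLP libraries. Ly6a, which encodes Sca1, stood at 2.24 TPM in CLP batch 2 replicate 2, from a Sca1lo gate, below the 4.86 to 9.86 TPM of the Sca1- GMP libraries, while the other CLP libraries had 27.3 to 37.6 TPM and the LMPP libraries 86.0 to 156 TPM. Il7r, the receptor of the CLP gate, was at 76.6 to 129.8 TPM in CLP, against 5.14 to 11.3 TPM in LMPP and at most 0.3 TPM in GMP. Summed TPM of 6 GMP markers was 21085 to 26314 in GMP libraries and 163 to 2107 in CLP and LMPP libraries, the highest of these being CLP batch 2 replicate 1.

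Hbb-bs is an adult beta globin gene on the minus strand of chromosome 7, 103826534 to 103828096 in the mm10 build, and was the most abundant member by TPM in 9 of the 12 libraries. Hbb-bt led in CLP batch 1 replicate 2, and Alas1 in both GMP libraries of batch 2. Hbb-bs stood at 298, 83.3, 16930 and 693 TPM in LMPP, at 297, 7.86, 7882 and 1401 TPM in CLP, and at 558, 664, 21.2 and 102 TPM in GMP. Within each type the values of batch 1 come before those of batch 2, with 2 libraries each, here and below. In LMPP and CLP the highest values were from batch 2, and in GMP from batch 1, and the 3 types overlapped. Means were 4501 ± 8290 TPM in LMPP, 2397 ± 3706 in CLP and 336 ± 322 in GMP (SD, n = 4), with an SD close to or above the mean in each type.

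Hbb-bt, the neighbouring adult beta globin gene (chromosome 7, 103812524 to 103813996, minus strand), ranked the libraries within each type in the same order. LMPP libraries had 149, 69.5, 6187 and 279 TPM, CLP libraries 136, 20.6, 3130.3 and 533 TPM, and GMP libraries 255, 329, 12 and 52.9 TPM. Hbb-bt made up 26.8% to 45.5% of the beta globin TPM in 11 libraries. In CLP batch 1 replicate 2, with the least globin, this share was 72.3%.

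The alpha globin genes lie on the plus strand of chromosome 11, Hba-a1 at 32283511 to 32284465 and Hba-a2 at 32296489 to 32297298. Hba-a1 stood at 58.3, 15.1, 2251 and 71.6 TPM in LMPP, at 45.2, 1.15, 1032 and 260.2 TPM in CLP, and at 120.2, 107 and then 4.78 and 12.7 TPM in GMP. Hba-a2 stood at 69.7, 15.4, 2718 and 115 TPM in LMPP, at 61.9, 6.18, 1348 and 245 TPM in CLP, and at 189, 173, 4.69 and 14.1 TPM in GMP. The haemoglobin-rich pair was highest in both genes and the ranges of the types overlapped. Beta globin TPM exceeded alpha globin TPM in all 12 libraries, by a ratio of 3.48 to 5.21 in LMPP, 3.83 to 4.63 in CLP and 2.63 to 5.75 in GMP.

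How RSEM divided reads within each pair limits the values of single globin genes. The coding sequences of Hbb-bs and Hbb-bt, both of 444 bases in the GENCODE transcripts of mm10, differ at 1 base and share an identical run of 416 bases. Those of Hba-a1 and Hba-a2, of 429 bases, also differ at 1 base and share a run of 380 bases. The 30 coding bases around each difference are shown because they are the coding sequence that separates the copies, with the differing base in capitals. The beta stretch runs from coding base 402 to 431 and the alpha stretch from 366 to 395, counted from the A of the start codon.
Hbb-bs: ggtggctggagtggcCgctgccctggctca
Hbb-bt: ggtggctggagtggcTgctgccctggctca
Hba-a1: gcatgcctctctggaCaaattccttgcctc
Hba-a2: gcatgcctctctggaTaaattccttgcctc
Reads away from these bases and from the untranslated ends do not separate the copies, so the sum of a pair is firmer than its division. Hba-a2 took 48.5% to 61.8% of the alpha globin TPM in 11 libraries and 84.3% in CLP batch 1 replicate 2.

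**Figure D1:**
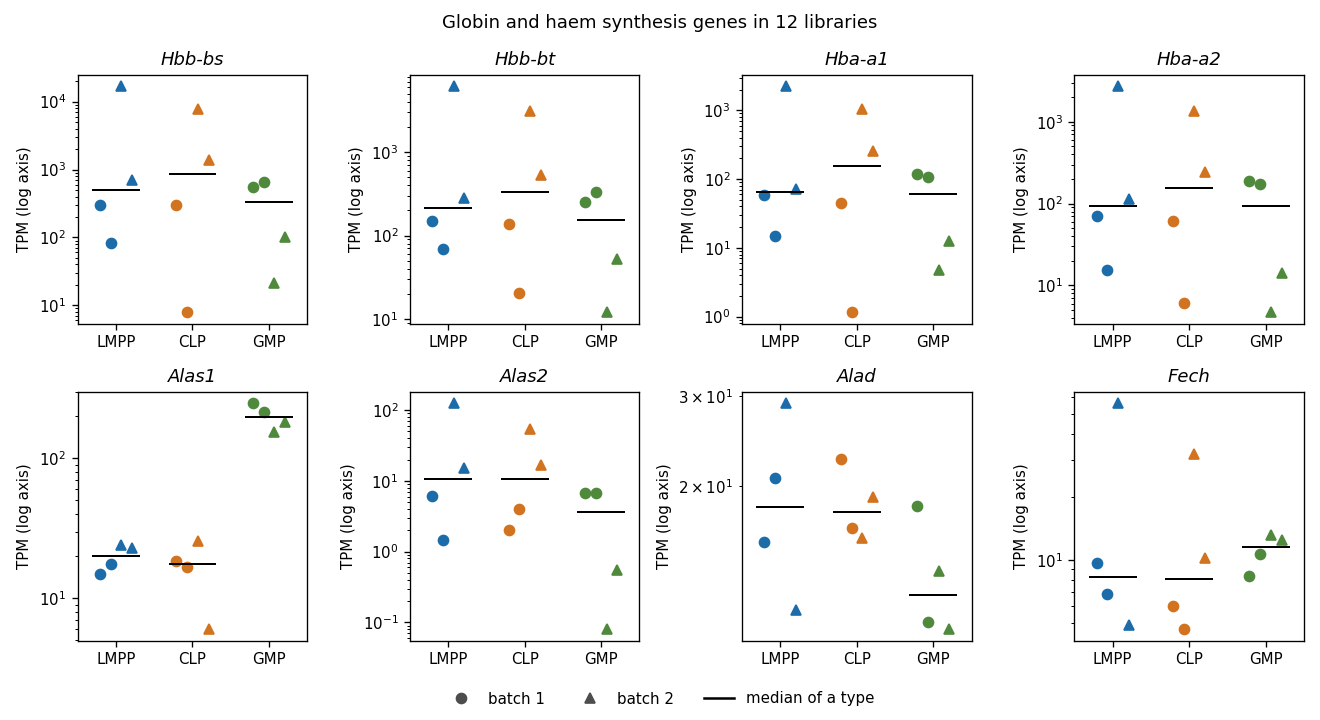
TPM on a log axis of each of the 8 genes in the LMPP, CLP and GMP libraries, left to right, with circles for batch 1, triangles for batch 2 and a line at the median of each type. The 4 globins and Alas2 have their highest LMPP and CLP points in batch 2 and their highest GMP points in batch 1, and Alas1 is the gene whose GMP points lie above all LMPP and CLP points.

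Alas2, the first enzyme of haem synthesis in red cell precursors, lies on chromosome X, 150547375 to 150570638, plus strand. It stood at 6.03, 1.48, 126 and 15.2 TPM in LMPP, at 2.00, 3.97, 54.3 and 17.0 TPM in CLP, and at 6.71, 6.63, 0.08 and 0.55 TPM in GMP. Its high libraries were the high libraries of the globins, and batch 2 was high in LMPP and CLP and low in GMP. Against the summed globins on the log2(TPM + 1) scale, Pearson r was 0.904 and Spearman rho 0.909 over 12 libraries. The relation was described without a p, since the points share their libraries and library totals. Without the 2 libraries farthest from the median of the log2 summed globins, LMPP batch 2 replicate 1 and CLP batch 1 replicate 2, r was 0.96 (n = 10). Within batch 2, r was 0.985, and within batch 1 it was 0.441 (n = 6 each). In batch 1, CLP replicate 2 had the least globin, 35.7 TPM, with 3.97 TPM of Alas2.

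Alas1, the first enzyme in most other cells (chromosome 9, 106233455 to 106248654, minus strand), had a different pattern. It stood at 14.9, 17.5, 24.2 and 22.9 TPM in LMPP, at 18.5, 16.9, 25.5 and 6.01 TPM in CLP, and at 249, 216, 155 and 181 TPM in GMP. All GMP libraries lay above all LMPP and CLP libraries, and LMPP and CLP overlapped. Since GMP form a separate cluster, the relation with the globins was taken over the 8 LMPP and CLP libraries alone, where r was 0.206 and rho 0.476. It was -0.44 without the haemoglobin-rich pair (n = 6). Alas1 exceeded Alas2 by 330 to 1937-fold in GMP of batch 2 and by 32.6 to 37.1-fold in GMP of batch 1. The range of batch 2 rests on Alas2 values of 0.08 and 0.55 TPM, both under 1 TPM. In the haemoglobin-rich pair the ratio of Alas1 to Alas2 was 0.192 in LMPP and 0.470 in CLP, so that Alas2 was the more abundant form there. It was also the more abundant form in CLP batch 2 replicate 2, at a ratio of 0.353, and the less abundant in the other LMPP and CLP libraries.

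Alad, which joins the products of the first step in pairs (chromosome 4, 62509169 to 62519918, minus strand), varied least among the members. It stood at 15.6, 20.8, 29.1 and 11.5 TPM in LMPP, at 22.6, 16.6, 15.9 and 19.1 TPM in CLP, and at 18.3, 10.9, 13.7 and 10.5 TPM in GMP. The types overlapped, and the highest value was that of LMPP batch 2 replicate 1 while CLP batch 2 replicate 1 had the lowest value in CLP. Its r with the summed globins was 0.372 over 12 libraries, 0.725 in batch 2 and -0.274 in batch 1 (n = 6 each). Leaving out the haemoglobin-rich pair, it was -0.139 over the other 6 LMPP and CLP libraries.

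Fech, the last enzyme (chromosome 18), stood at 9.59, 6.87, 56.2 and 4.89 TPM in LMPP, at 5.98, 4.65, 32.1 and 10.2 TPM in CLP, and at 8.37, 10.7, 13.2 and 12.4 TPM in GMP. The haemoglobin-rich pair had the highest values, and in GMP the libraries of batch 2, low in globin, were the higher ones. Its r with the summed globins was 0.693 over 12 libraries and 0.37 without the same pair of libraries as for Alas2 (n = 10). Within batch 1 it was 0.838, above that of Alas2 there, and within batch 2 it was 0.619 (n = 6 each). Over the 8 LMPP and CLP libraries r was 0.875, and 0.56 over the 6 of them outside the haemoglobin-rich pair.

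**Figure D2:**
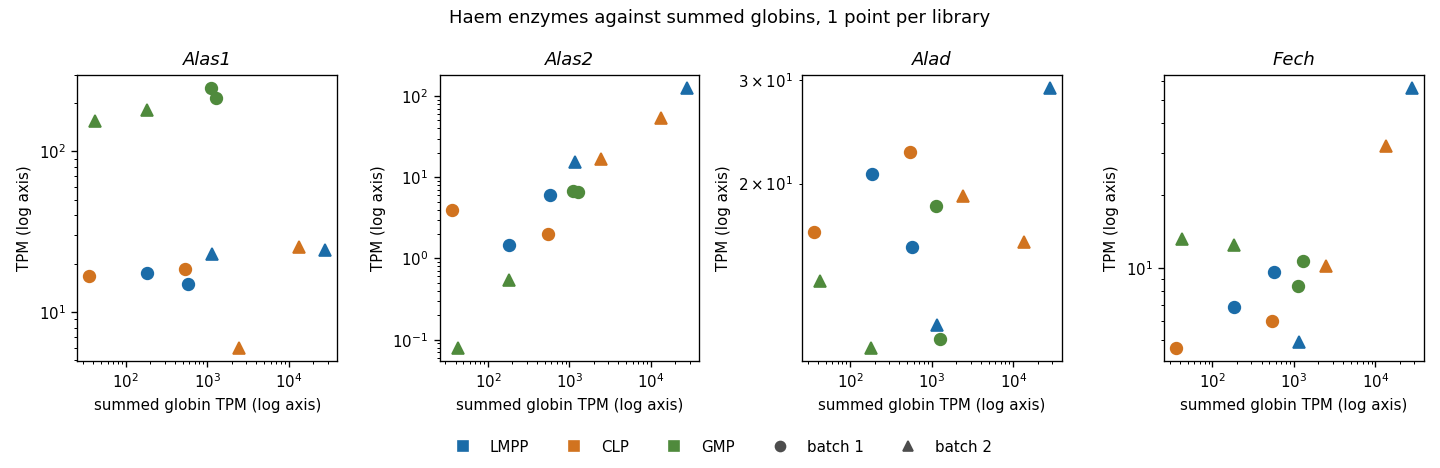
TPM of each haem enzyme against the summed TPM of the 4 globins, both on log axes, with 1 point per library, colours for LMPP, CLP and GMP, and circles for batch 1 and triangles for batch 2. Alas2 runs along the diagonal (r = 0.904, n = 12), Fech leaves its other values in the haemoglobin-rich pair, at 56.2 and 32.1 TPM, and Alas1 separates the GMP points from the rest.

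Each type had a library of batch 2 labelled replicate 1, and its ratio to the other batch 2 library of the type showed which enzymes went with the globins. Hbb-bs was 24.4 times as high in LMPP batch 2 replicate 1, 5.62 times as high in CLP batch 2 replicate 1 and 0.208 times as high in GMP batch 2 replicate 1. For Alas2 the ratios were 8.30 in LMPP, 3.19 in CLP and 0.146 in GMP. The GMP ratio rests on 0.08 and 0.55 TPM, both under 1 TPM, and was -0.52 as a difference in log2(TPM + 1). These genes thus stood high in the LMPP and CLP libraries and low in the GMP library of that replicate number.

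Of the later enzymes, Fech had ratios of 11.5 in LMPP, 3.15 in CLP and 1.06 in GMP. Alad had 2.53 in LMPP, 0.832 in CLP and 1.30 in GMP, so that in CLP it lay below its batch mate. Urod, Cpox and Ppox, which trim and oxidize the ring, had ratios of 1.69 to 2.72 in LMPP and CLP and of 0.782 to 1.24 in GMP. Uros, which closes the ring, had 6.41 in LMPP, 2.07 in CLP and 1.95 in GMP. In the GMP library the enzymes after Alas2 thus stood near their batch mate or above it, while the globins were at 0.208 to 0.376 of it. Alas1 had a ratio of 1.06 in LMPP and 4.25 in CLP, the second set against the lowest Alas1 value of all libraries, 6.01 TPM. Each ratio compares 2 libraries and has no replicate check.

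**Figure D3:**
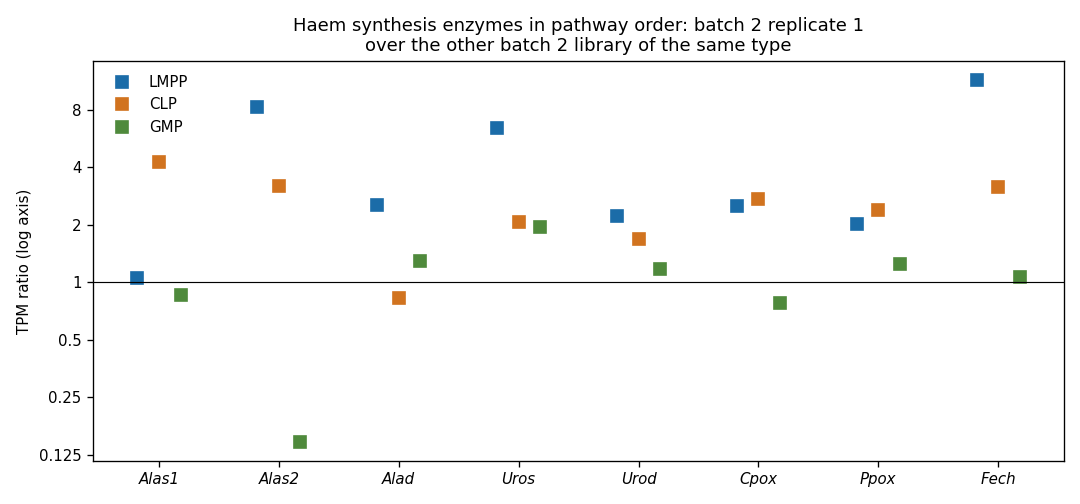
Ratio of TPM in batch 2 replicate 1 to TPM in the other batch 2 library, on a log axis, for 8 haem synthesis enzymes in pathway order, with LMPP, CLP and GMP side by side. In LMPP the ratio is 8.30 for Alas2 and 11.5 for Fech but 1.06 for Alas1. In GMP it is 0.146 for Alas2, from 0.08 and 0.55 TPM, and 0.782 to 1.95 for the others.

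Alas2 and Fech were also set against the globins of the same library. Per 1000 TPM of globin, Alas2 had 4.50 TPM in the LMPP library of the pair and 4.06 TPM in its CLP library. In the other LMPP libraries it was 8.08 to 13.1 TPM, in the other CLP libraries 3.70 to 111 TPM, and in GMP 1.88 to 5.98 TPM. The value of 111 TPM was that of CLP batch 1 replicate 2, which had the least globin. Fech per 1000 TPM of globin was 2.00 and 2.40 TPM in the pair, against 4.18 to 309.6 TPM in the other 10 libraries. The pair was named for its high globins, which are the divisor here, so low values are favoured in it. Alas1, at 0.862 and 1.91 TPM, and Alad, at 1.04 and 1.19 TPM, were also lowest in the pair.

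Between the members of the haemoglobin-rich pair the same proportion recurred across genes. The LMPP library exceeded the CLP library 2.15-fold in Hbb-bs, 1.98-fold in Hbb-bt, 2.18-fold in Hba-a1 and 2.02-fold in Hba-a2. The ratio was 2.33 for Alas2, 1.75 for Fech and 1.83 for Alad, and 0.949 for Alas1. Slc4a1, the anion exchanger of the red cell membrane, had a ratio of 2.27, and the neutrophil genes S100a8 and S100a9 had 2.04 and 2.31. Genes of the sorted types had other ratios, 0.637 for Mpo and 0.0326 for Cd79a.

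Of the markers of other cell types, those of erythroid cells and neutrophils moved most with the globins. Summed markers of macrophages, and of megakaryocytes and platelets, were also higher in the haemoglobin-rich pair than in other libraries of the same type. The summed TPM of 10 erythroid markers was 533 in LMPP batch 2 replicate 1 and 251 in CLP batch 2 replicate 1, with none of the markers at 0. It was 16.6 to 38.4 TPM in the other LMPP libraries, 3.03 to 33.7 TPM in the other CLP libraries and 5.80 to 20.6 TPM in GMP. In CLP batch 1 replicate 2, 6 of the 10 were listed at 0. Gata1, which encodes the master regulator of the red cell lineage, stood at 4.54 and 2.2 TPM in the pair, and at most at 0.94 TPM in the other LMPP and CLP libraries and 2.04 TPM in GMP. The summed TPM of 11 neutrophil markers was 26257 in LMPP batch 2 replicate 1 and 12132 in CLP batch 2 replicate 1, again with none at 0. In the other libraries it was 34.7 to 1808 TPM in LMPP, 14.8 to 1985 in CLP and 61.5 to 1467 in GMP. In GMP it was 1242 and 1467 TPM in batch 1, where the globins were high, and 61.5 and 329 TPM in batch 2. Macrophage markers summed to 18.3 and 15.3 TPM in the pair and to 3.21 to 13.1 TPM in the other libraries. Megakaryocyte and platelet markers summed to 45.55 TPM in the LMPP library of the pair, against 30.2 to 35.97 TPM in the other LMPP libraries. In its CLP library they summed to 20.01 TPM, against 4.32 to 16.95 TPM in the other CLP libraries. The GMP libraries had 27.09 to 51.6 TPM of them. T and NK cell markers were not raised in the pair, at 113 and 91.6 TPM. They summed to 57.4 to 163 TPM in the other LMPP and CLP libraries and to 470 to 828 TPM in GMP. The GMP sums were nearly all Nkg7, at 470 to 826 TPM, with 4 or 5 of the 7 markers listed at 0 in each GMP library. B lineage markers summed to 784 and 5275 TPM in the pair, and were highest at 6406 TPM in CLP batch 2 replicate 2. The other LMPP libraries had 248 to 557 TPM of them. The part of these cell types in the globin values was not tested.

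Among the 6716 genes whose mean was 10 TPM or more, a search listed those outside the members whose log2(TPM + 1) was most like the log2 summed globins over the 12 libraries. The highest r was that of S100a9 (0.974), a calcium-binding protein of neutrophils, followed by Slc4a1 (0.969). Of the 10 highest, Retnlg, Camp, S100a8, Ngp and Ltf were, with S100a9, among the neutrophil markers, and Chil3, a chitinase-like protein of myeloid cells, had an r of 0.885. Bpgm (0.879), which makes the bisphosphoglycerate of red cells, was also among them. Alas2, a member, had an r of 0.904, so that several neutrophil genes followed the globins as closely as the red cell enzyme did.

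Between types, limma was fitted on log2(TPM + 1) over all 12 libraries with batch as a term, for the 12718 genes that reached 1 TPM in 4 or more libraries, which included all 8 members. A gene was called at a Benjamini-Hochberg adjusted p under 0.05 over all genes tested, and differences on this scale understate those of low genes. Alas1 was the member that differed. On the log2 scale it was lower in LMPP than in GMP, by -3.27 (SE 0.341, limma adjusted p = 5.93e-05), and lower in CLP than in GMP by -3.64 (SE 0.341, limma adjusted p = 2.18e-05). The 95% intervals ran from -4.02 to -2.53 and from -4.38 to -2.89. Means were 19.9 ± 4.41 TPM in LMPP, 16.7 ± 8.07 in CLP and 200.4 ± 41.0 in GMP (SD, n = 4), and the ranges of LMPP and CLP did not overlap that of GMP. Both comparisons share the GMP libraries.

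The other 7 members were not called in any comparison. In LMPP against CLP 0 of 8 members were called, where 10% of all genes tested were called. In LMPP against GMP 1 of 8 was called, where 28.9% of genes were, and in CLP against GMP 1 of 8, where 23.9% were. For Hbb-bs the log2 difference was 0.83 in LMPP against CLP (95% interval -3.23 to 4.90), 2.11 in LMPP against GMP (-1.95 to 6.18) and 1.28 in CLP against GMP (-2.79 to 5.34). These intervals span differences in either direction, and the limma adjusted p was 0.811, 0.421 and 0.662. For Alas2 the difference was 0.32 in LMPP against CLP (-2.11 to 2.75), 2.13 in LMPP against GMP (-0.30 to 4.56) and 1.81 in CLP against GMP (-0.62 to 4.24). The limma adjusted p for Alas2 was 0.881, 0.172 and 0.264. For Alad the intervals were narrower, from -0.59 to 0.57 in LMPP against CLP, -0.13 to 1.03 in LMPP against GMP and -0.11 to 1.04 in CLP against GMP. Over all genes tested, 920 (7.23%) were higher and 356 (2.80%) lower in LMPP than in CLP. Against GMP, 2707 (21.3%) were higher and 969 (7.62%) lower in LMPP, and 1773 (13.9%) higher and 1267 (9.96%) lower in CLP. Under median-ratio scaling these counts were 559 and 602, 1716 and 1868, and 1524 and 1699, and the medians of all genes were 0.02, 0.02 and 0.005 in place of 0.17, 0.24 and 0.09. At an unadjusted p under 0.05, Alas1 was again the one member in either comparison with GMP and none passed in LMPP against CLP.

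**Figure D4:**
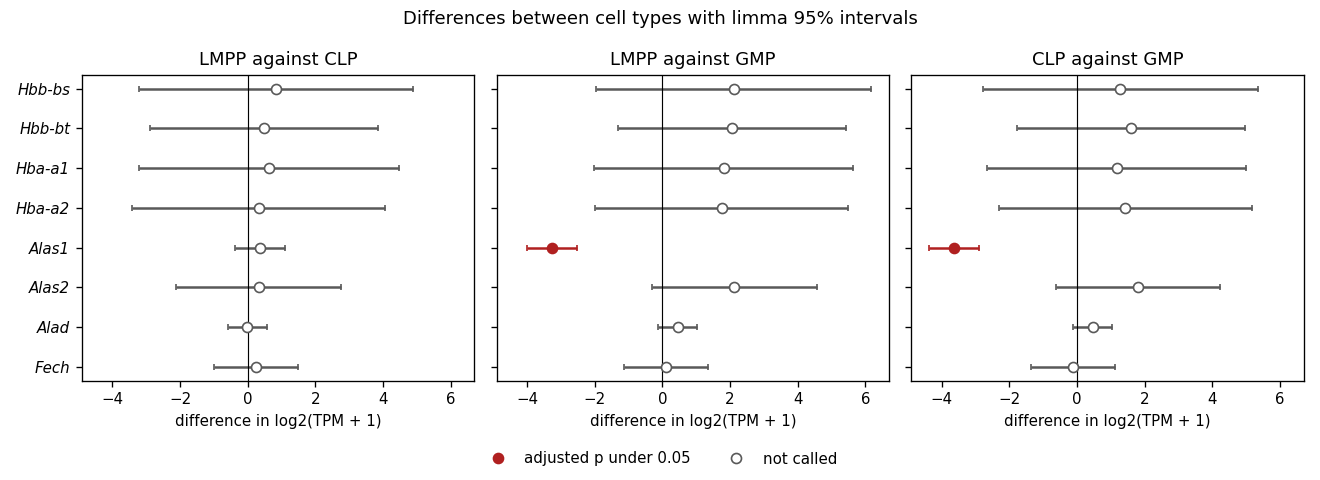
Difference in log2(TPM + 1) between types for each of the 8 genes with limma's 95% interval, in LMPP against CLP, LMPP against GMP and CLP against GMP, filled red where the adjusted p was under 0.05. Alas1 lies at -3.27 and -3.64 against GMP with short intervals, and the intervals of the globins reach from below -1 to above 3 in every comparison.

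The globin differences depended on the batch. In batch 2, Hbb-bs was higher in LMPP than in GMP by 6.17 and in CLP than in GMP by 6.12 on the log2 scale, while in batch 1 the differences were -1.94 and -3.57. Hba-a2 differed by 5.95 between CLP and GMP in batch 2 and by -3.10 in batch 1, and Alas2 by 4.61 in batch 2 and by -0.99 in batch 1. The globins and Alas2 thus stood on opposite sides of GMP in the batches. Alas1 differed by -3.63 in batch 2 and by -3.64 in batch 1.

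The change of the CLP against GMP difference, batch 2 minus batch 1, was tested as an interaction in limma and was called for 4 of 8 members, where 5.48% of genes were called. It was 5.60 for Alas2 (SE 1.24, adjusted p = 0.0307), 9.05 for Hba-a2 (SE 2.07, adjusted p = 0.0347), 9.39 for Hba-a1 (SE 2.30, adjusted p = 0.0452) and 8.03 for Hbb-bt (SE 1.97, adjusted p = 0.0452). Hbb-bs had 9.69 (SE 2.47) and missed the threshold (adjusted p = 0.0507). For Alas1 it was 0.01 (SE 0.644), for Alad 0.08 (SE 0.558) and for Fech 1.22 (SE 1.19), none of them called. These calls rest on 2 libraries of a type in each batch. Leaving out a library, here and below, left 1 in its type and batch. The share of all genes called in those interaction fits is not given. None of the 8 was called without CLP batch 1 replicate 2, without any GMP library left out in turn, or with no filter on low values. Without LMPP batch 1 replicate 1 or LMPP batch 1 replicate 2, 1 member, Alas2, was called. Without the haemoglobin-rich pair 6 members were called, the 4 globins, Alas2 and Alas1.

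For LMPP against GMP the same change was 6.01 for Alas2 and 7.14 to 8.34 for the globins, with 0 of 8 members called (limma adjusted p 0.233 to 0.372), where 0.0157% of genes were called. At an unadjusted p under 0.05 these 5 members passed, and without LMPP batch 2 replicate 3 Alas2 was called. For LMPP against CLP 0 of 8 were called by limma, and 0 at an unadjusted p under 0.05, where 8.58% of genes were called, and 2 were called without the haemoglobin-rich pair, Alas1 and Fech. Without CLP batch 2 replicate 1 alone, 1 member was called, Alas1.

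**Figure D5:**
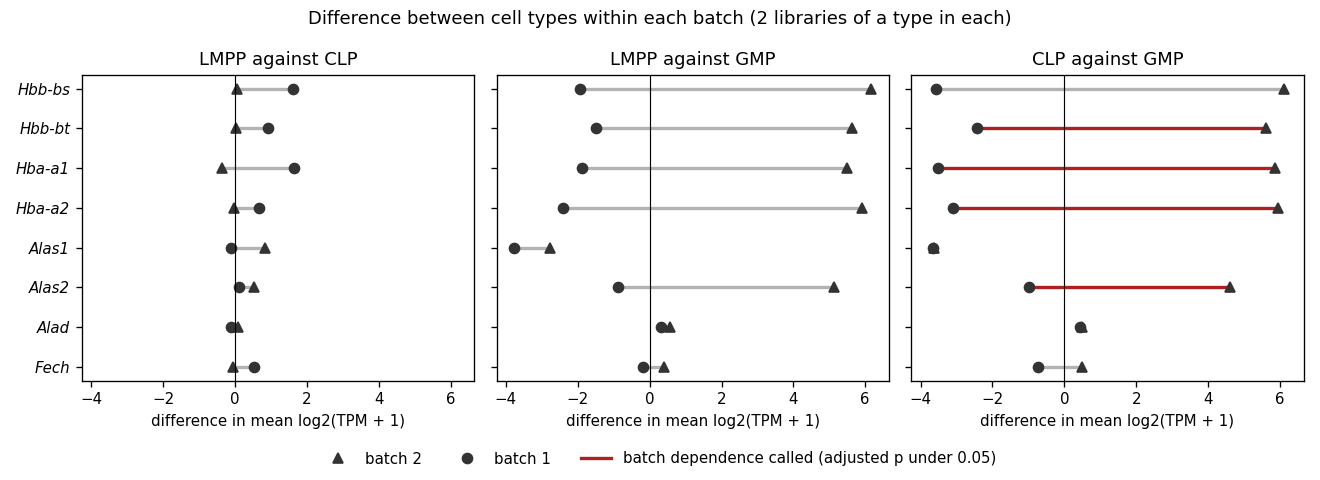
Difference in mean log2(TPM + 1) between types within batch 2 (triangles) and within batch 1 (circles), joined by a line that is red where its dependence on the batch was called. In CLP against GMP the 4 globins lie between 5.61 and 6.12 in batch 2 and between -3.57 and -2.42 in batch 1, and the points of Alas1 coincide at -3.63 and -3.64.

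Of the whole pathway of 9 haem synthesis enzymes, 1 was called lower in LMPP than in GMP and in CLP than in GMP, Alas1, and none was called higher. Called lower were thus 11.1% of the list in each comparison, beside 7.62% and 9.96% of all genes tested. Called higher were 0%, beside 21.3% and 13.9%. None was called in LMPP against CLP, where 0 also passed an unadjusted p under 0.05 in limma. Median log2 differences were 0.24 in LMPP against CLP, 0.11 in LMPP against GMP and 0.09 in CLP against GMP, beside 0.17, 0.24 and 0.09 for all genes tested. Urod stood at 18.8 to 74.0 TPM in LMPP, 18.2 to 49.6 in CLP and 17.9 to 34.1 in GMP, and was not called.

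Other globin genes were nearly silent. The embryonic genes Hbb-bh1, Hbb-y and Hba-x, together with Hbb-bh2 and the genes of myoglobin and neuroglobin, were listed at 0 in all 12 libraries. Hbq1b, a theta globin gene, had 14.3 TPM in the LMPP library and 5.50 TPM in the CLP library of the haemoglobin-rich pair, 18.8 TPM in the other CLP library of batch 2, and at most at 0.86 TPM elsewhere. None of the 9 matched genes of this list passed the filter.

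Iron and haem transport genes were called about as often as all genes tested. The share was 9.52% against 10% in LMPP against CLP, 28.6% against 28.9% in LMPP against GMP and 19% against 23.9% in CLP against GMP. Of 21, 2 were higher in LMPP than in CLP (Abcg2 and Tfr2) and 0 lower, with a median of 0.09. In LMPP against GMP 2 were higher (Abcg2 and Fth1) and 4 lower (Ftl1, Slc25a39, Steap3 and Tmem14c), with a median of -0.09, and in CLP against GMP 1 was higher (Fth1) and 3 lower (Abcb10, Ftl1 and Tfr2), with a median of -0.16. Ftl1, the ferritin light chain that stores iron, averaged 679 ± 114 TPM in LMPP, 602 ± 164 in CLP and 1341 ± 300.1 in GMP (SD, n = 4). It was lower than in GMP by -0.97 in LMPP (SE 0.130, limma adjusted p = 0.000275) and by -1.17 in CLP (SE 0.130, limma adjusted p = 7.27e-05), on the log2 scale. Fth1, the heavy chain, went the other way, with 1463 ± 307 TPM in LMPP, 1320.0 ± 158 in CLP and 944 ± 129 in GMP. Its difference was 0.62 in LMPP against GMP (limma adjusted p = 0.0123) and 0.49 in CLP against GMP (limma adjusted p = 0.0428), and the CLP call ended under 14 of 24 alternatives, among them the loss of any GMP library, of either LMPP library of batch 1 or of any CLP library but batch 2 replicate 2. Under median-ratio scaling both Fth1 calls ended. The call of Steap3 ended under 13 of 24 alternatives, among them leaving out any LMPP library, any GMP library but batch 2 replicate 1, or CLP batch 1 replicate 1. That of Abcg2 against GMP ended under 11, among them leaving out replicate 1 of LMPP in either batch or any GMP library but batch 1 replicate 2. In LMPP against CLP the call of Abcg2 ended under 8, among them median-ratio scaling and leaving out either CLP library of batch 1 or any LMPP library but batch 2 replicate 3. Abcb10 lost its call under 7, among them leaving out replicate 2 of CLP in either batch or any GMP library but batch 2 replicate 2. Slc25a39 lost its call in batch 2 alone and with the replicate block, and the calls of Ftl1 and Tfr2 held under all 24. Tmem14c, a mitochondrial protein needed for haem synthesis in red cell precursors, was lower in LMPP than in GMP by -0.83 (limma adjusted p = 0.0145), a call that ended in batch 2 alone and with no batch term. Slc25a37, the mitochondrial iron importer mitoferrin, was not called and had 130.0 and 72.6 TPM in the haemoglobin-rich pair, against 19.7 to 37.6 TPM elsewhere. Without the haemoglobin-rich pair the counts for this list were 1 higher and 7 lower in LMPP than in GMP, and 3 higher and 6 lower in CLP than in GMP.

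Genes of haem breakdown and sensing were not called in any comparison, 0 of 8 against 10%, 28.9% and 23.9% of all genes tested, with medians of 0.24, 0.26 and -0.17 in LMPP against CLP, LMPP against GMP and CLP against GMP. At an unadjusted p under 0.05, 2, 0 and 1 of them passed in limma. Hmox2, the constitutive haem oxygenase, had means of 30.5 ± 7.05 TPM in LMPP, 47.5 ± 21.1 in CLP and 30.1 ± 8.40 in GMP (SD, n = 4). Blvrb, a biliverdin reductase abundant in red cells, stood at 46.1 and 25.2 TPM in the haemoglobin-rich pair and at 2.30 to 14.2 TPM elsewhere.

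Of 12 regulators of the red cell lineage, 10 passed the filter. In LMPP against CLP 3 were higher and 0 lower (Lmo2, Nfe2 and Tal1), with a median of 0.31, and so 30% were higher, where 7.23% of all genes tested were. In LMPP against GMP 5 were higher and 0 lower (Bcl11a, Gfi1b, Ldb1, Lmo2 and Tal1), with a median of 0.82, and in CLP against GMP 2 were higher (Bcl11a and Gfi1b) and 3 lower (Lmo2, Nfe2 and Tal1), with a median of 0.13. Higher in LMPP than in GMP were thus 50% of the list and 21.3% of all genes. For CLP against GMP the shares were 20% and 13.9% higher, and 30% and 9.96% lower. Of these calls, that of Tal1 in CLP against GMP ended under 15 of 24 alternatives, among them leaving out any GMP library, any LMPP library but batch 2 replicate 3, CLP batch 1 replicate 1 or CLP batch 2 replicate 2. Ldb1 lost its call under 11, among them median-ratio scaling and leaving out either LMPP library of batch 2 or any GMP library but batch 2 replicate 1. Tal1 lost its call in LMPP against GMP under 3, none of them leaving out 1 library, and in LMPP against CLP in batch 2 alone. Gfi1b lost its call in CLP against GMP in batch 2 alone. These factors also act in stem cells, platelets or lymphoid cells. Lmo2, a bridging protein of the Gata1 and Tal1 complex that stem cells also use, averaged 329 ± 41.3 TPM in LMPP, 51.5 ± 16.7 in CLP and 125 ± 30.5 in GMP (SD, n = 4). Its log2 difference was 2.72 in LMPP against CLP (limma adjusted p = 0.000122), 1.42 in LMPP against GMP (limma adjusted p = 0.00165) and -1.30 in CLP against GMP (limma adjusted p = 0.0029). Its call in LMPP against GMP ended in batch 2 alone (limma adjusted p = 0.0661). Bcl11a, a repressor of embryonic and foetal globin genes and a factor of lymphoid cells, averaged 79.3 ± 24.5 TPM in LMPP, 78.3 ± 5.56 in CLP and 18.5 ± 2.47 in GMP. It was higher than in GMP by 2.00 in LMPP (limma adjusted p = 2.3e-05) and by 2.03 in CLP (limma adjusted p = 1.33e-05). Nfe2, a factor of the globin locus and of platelets, averaged 51.0 ± 7.45 TPM in LMPP, 15.8 ± 3.76 in CLP and 51.5 ± 6.49 in GMP. Klf1, the activator of adult beta globin, stood at 7.50 and 4.11 TPM in the haemoglobin-rich pair and at most at 1.36 TPM elsewhere. Without the pair the counts were 3 and 0 in LMPP against CLP, 5 and 1 in LMPP against GMP, and 2 and 4 in CLP against GMP.

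Of 17 genes of the red cell membrane and erythroblast, 13 passed the filter. In LMPP against GMP 2 were higher and 0 lower, Car2 and Hemgn, with a median of 1.54, and in CLP against GMP and LMPP against CLP 1 was higher, Car2, with medians of 0.81 and 0.43. The shares called higher, 15.4%, 7.69% and 7.69%, stood beside 21.3%, 13.9% and 7.23% of all genes tested in these comparisons. Car2, a carbonic anhydrase that several blood lineages express, stood at 191, 178, 471 and 253 TPM in LMPP, at 17.6, 22.8, 231 and 141 TPM in CLP, and at 14.0, 21.2, 12.5 and 14.3 TPM in GMP. It was higher in LMPP than in GMP by 3.97 (SE 0.546, limma adjusted p = 0.000334), without overlap. Its call in LMPP against CLP (2.04, limma adjusted p = 0.0364) ended under 11 of 24 alternatives, among them median-ratio scaling and leaving out any LMPP library or either CLP library of batch 1. That of Hemgn ended under 8, among them leaving out replicate 1 of LMPP in either batch or any GMP library but batch 1 replicate 2. The call of Car2 in CLP against GMP (1.93, limma adjusted p = 0.0227) ended under 10 of 24, among them batch 1 alone, no batch term, no filter on low values, and leaving out the haemoglobin-rich pair or any 1 batch 2 library of CLP or GMP. Slc4a1 stood at 2.73, 1.26, 159 and 7.59 TPM in LMPP, at 1.87, 0, 70.2 and 16.8 TPM in CLP, and at 4.55, 5.29, 0.31 and 0.74 TPM in GMP, and was not called. Without the haemoglobin-rich pair the median of this list was 0.58 in LMPP against GMP, 0.12 in CLP against GMP and 0.37 in LMPP against CLP. Of 12 reticulocyte genes, 11 passed the filter, and 0 were called in LMPP against CLP by limma, with 1 at an unadjusted p under 0.05. In LMPP against GMP 4 were higher (Fbxo7, Isg20, Prdx2 and Xpo7) and 0 lower, with a median of 0.93, and in CLP against GMP 2 were higher (Fbxo7 and Xpo7) and 1 lower (Gpx1), with a median of 0.52. Called higher were 36.4% against GMP in LMPP and 18.2% in CLP, where 21.3% and 13.9% of all genes were, and 9.09% were lower in CLP, where 9.96% of all genes were. The call of Isg20 ended under 11 of 24 alternatives, among them median-ratio scaling and leaving out replicate 1 of LMPP in either batch or either GMP library of batch 2. That of Fbxo7 in CLP against GMP ended under 10, among them median-ratio scaling and leaving out any CLP or GMP library but replicate 1 of batch 2. Xpo7 lost its calls in batch 2 alone and with no batch term, and in CLP against GMP also in batch 1 alone. Fbxo7 lost its call in LMPP against GMP in batch 2 alone, and Gpx1 lost its call with no batch term. These medians were 0.18 and 0.22 without the haemoglobin-rich pair. Gpx1, a glutathione peroxidase that most blood cells express, was lower in CLP than in GMP by -1.41 (limma adjusted p = 0.00397), and Prdx2, a peroxiredoxin abundant in red cells, was higher in LMPP than in GMP by 0.72 (limma adjusted p = 0.0153), which was not called after median-ratio scaling or in batch 2 alone.

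The upstream sequences of members that moved together and of Alas1, which did not move with them, are shown from RefSeq on GRCm38.p6, the 250 bases before the annotated start, written 5′ to 3′ on the gene's strand. Capitals mark 4 motifs searched on both strands. They were the GATA motif as AGATAA or AGATAG or TGATAA or TGATAG, the CACCC-type motif CCNCNCCC, the CCAAT box CCAAT and the TATA motif TATAA. Of the 32851 promoters that RefSeq gave, 26.5% held the GATA motif, 45.9% the CACCC-type motif, 33.8% CCAAT and 22.8% TATAA in the same window. Hbb-bs lies at chr7:103827929-103828178 and Hbb-bt at chr7:103813924-103814173, both on the minus strand. Hba-a1 lies at chr11:32283422-32283671 and Alas2 at chrX:150547167-150547416, both on the plus strand, and Alas1 at chr9:106247731-106247980 on the minus strand, the second of its annotated starts.
Hbb-bs: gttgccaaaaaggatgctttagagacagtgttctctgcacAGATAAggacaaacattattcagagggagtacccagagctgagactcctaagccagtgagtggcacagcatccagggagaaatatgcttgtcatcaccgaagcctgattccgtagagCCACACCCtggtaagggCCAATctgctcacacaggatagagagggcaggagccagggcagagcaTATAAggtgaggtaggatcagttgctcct
Hbb-bt: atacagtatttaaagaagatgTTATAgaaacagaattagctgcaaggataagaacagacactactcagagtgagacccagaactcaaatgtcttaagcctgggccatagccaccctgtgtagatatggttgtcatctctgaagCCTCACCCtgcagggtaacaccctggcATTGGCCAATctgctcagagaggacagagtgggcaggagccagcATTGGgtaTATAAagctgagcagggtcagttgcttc
Hba-a1: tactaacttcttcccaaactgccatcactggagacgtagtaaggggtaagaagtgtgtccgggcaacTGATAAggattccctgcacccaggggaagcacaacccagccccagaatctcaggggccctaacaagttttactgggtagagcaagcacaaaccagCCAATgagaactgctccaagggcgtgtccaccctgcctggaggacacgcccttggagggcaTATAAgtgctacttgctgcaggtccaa
Alas2: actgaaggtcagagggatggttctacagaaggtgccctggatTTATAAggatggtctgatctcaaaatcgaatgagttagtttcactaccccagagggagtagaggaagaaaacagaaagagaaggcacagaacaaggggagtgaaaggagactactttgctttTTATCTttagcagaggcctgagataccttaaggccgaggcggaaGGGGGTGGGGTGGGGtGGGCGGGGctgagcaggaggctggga
Alas1: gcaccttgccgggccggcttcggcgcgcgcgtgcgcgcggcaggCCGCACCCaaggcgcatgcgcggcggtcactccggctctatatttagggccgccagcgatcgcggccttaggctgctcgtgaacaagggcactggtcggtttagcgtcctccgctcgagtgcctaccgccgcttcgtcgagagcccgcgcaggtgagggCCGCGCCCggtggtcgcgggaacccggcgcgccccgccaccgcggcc
Hbb-bs held the CACCC-type motif at -93, CCAAT at -76 and TATAA at -29, counted from the start to the first base of the match, and a GATA motif at -210. Hbb-bt held the CACCC-type motif at -107, CCAAT at -80, -75 and -36 and TATAA at -229 and -28, with the matches at -229, -80 and -36 on the opposite strand, and no GATA match in this window. Hba-a1 held a GATA motif at -183, CCAAT at -88 and TATAA at -27, and no CACCC-type match. The Hba-a2 window was identical to that of Hba-a1 over 247 of 247 aligned bases, shifted by 3 bases. Alas2 held a GATA motif at -86 on the opposite strand, 4 CACCC-type matches on the opposite strand that begin at -42, -40, -35 and -26, and no CCAAT match. The first 3 of these matches overlap, and the TATAA matches of Alas2 at -208 and -207 overlap on opposite strands. Alas1 held CACCC-type matches at -206 and -47 and no match of the other motifs in this window, and its first annotated start had a CACCC-type match at -228. No factor binding was measured, and a match is a description of letters. Fech had no entry in the table.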

How the data were processed

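Bulk RNA-seq of LMPP, CLP and GMP was deposited as 1 table of TPM per Ensembl gene, which the authors had normalized to a fixed total (999999 to 1000001 per library). The submitters' processing notes name edgeR 3.10.0, RSEM 1.2.12 and Bowtie2 2.2.0 and the build mm10, without order or settings. Neither the annotation nor the use of strand is stated. TPM keeps no depth, so no counting interval or floor can be given and a 0 is described as listed at 0. The table's other 17 value columns match no sample's name and were not used.

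Symbols were matched on Ensembl identifiers in GENCODE M21 (37607 of 38924). Groups and batches came from the sample titles. In R 4.3.3, limma 3.58.1 with a variance trend was fitted on log2(TPM + 1) of 12718 genes that reached 1 TPM in 4 or more libraries, over all 12 libraries with type and batch, leaving 8 residual degrees of freedom. A fit with a type by batch interaction tested whether a difference depended on the batch. All p-values are two-sided, with Benjamini-Hochberg adjustment over every gene tested. The fit was tested on simulated data. Correlations carry no p, because the libraries cluster by type.

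The members and lists were chosen with earlier results of these data known. Every member was named, with up to 4 genes of each list with the highest maximum TPM and the 10 genes most like the summed globins, of which some are not reported here. Marker genes, genes behind counts of 5 or fewer and those given for single libraries were chosen after seeing their values. Alternatives changed the pseudocount (0.1), filter, scaling, batch term, replicate block and libraries. Sequences came from GENCODE transcripts of mm10 and RefSeq promoters of GRCm38.p6, read with Python 3.11.15.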

Additional observations from a re-analysis of the deposited data

Results flagged for a closer look

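In 7 of 24 searches, 1 per member and type, a library lay far from the other 3 of its type in TPM, and in 0 of 24 on the log2(TPM + 1) scale. For normally distributed values, chance flags about 1 in 20 groups. The globins in TPM had an SD close to or above the mean in each type, so this rate need not hold for the 7. The searches are also not independent, since 6 of the 7 concern LMPP batch 2 replicate 1. In that library these were Hbb-bs at 16930 TPM, Hbb-bt at 6187 TPM, Hba-a1 at 2251 TPM, Hba-a2 at 2718 TPM, Alas2 at 126 TPM and Fech at 56.2 TPM. The other was Hbb-bt at 3130.3 TPM in CLP batch 2 replicate 1. Alas1 and Alad were not among them in any type.

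The difference between CLP and GMP depended on the batch for 4 members by limma's interaction test. Batch 2 minus batch 1, on the log2 scale, it was 9.39 for Hba-a1, 9.05 for Hba-a2, 8.03 for Hbb-bt and 5.60 for Alas2. These differences lay between 4.61 and 5.95 in batch 2 and between -3.52 and -0.99 in batch 1. The neutrophil marker sum moved in the same way, with 12132 and 1985 TPM in CLP and 61.5 and 329 TPM in GMP of batch 2, and 177 and 14.8 TPM in CLP and 1242 and 1467 TPM in GMP of batch 1. Its part in the globin values was not tested.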

How the results depend on the processing

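Alas1 was called lower than GMP under all 24 alternatives, at -3.77 to -2.78 in LMPP (limma adjusted p 1.19e-06 to 0.0443) and -3.96 to -3.22 in CLP (5.24e-06 to 0.0172). The other 7 members were not called against GMP except Alas2 in batch 2 alone, at 5.14 in LMPP (0.0394) and 4.61 in CLP (0.0406), which made 2 members called in each. With the replicate block Alas1 was at -3.56 in LMPP and -3.64 in CLP (0.000725 and 0.000138), and no member call between types changed. Deviations of the replicate 1 libraries from the mean of their type and batch were correlated over all genes tested. For LMPP with CLP, LMPP with GMP and CLP with GMP they gave -0.0451, 0.0265 and -0.0634 in batch 1. In batch 2 they gave 0.169, -0.106 and -0.0477, and the 0.169 was that of the haemoglobin-rich pair. With 2 libraries of a type in each batch, these values cannot decide whether the replicate numbers pair the libraries. The block gave 5 members whose CLP against GMP difference depended on the batch, with Hbb-bs added.

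The following uncalled directions were reversed, and the cause was not tested. In LMPP against CLP these were, in batch 2 alone, Hba-a1 (-0.36), Hba-a2 (-0.036), Alad (0.074) and Fech (-0.069), in batch 1 alone Alas1 (-0.12), and under the replicate block Alad (0.16). In LMPP against GMP, batch 1 alone gave Hbb-bs -1.94, Hbb-bt -1.50, Hba-a1 -1.89, Hba-a2 -2.42, Alas2 -0.88 and Fech -0.20. Fech was also at -0.13 after median-ratio scaling, -0.20 after quantile normalization and -0.57 without the haemoglobin-rich pair. In CLP against GMP, batch 1 alone gave Hbb-bs -3.57, Hbb-bt -2.42, Hba-a1 -3.52, Hba-a2 -3.10 and Alas2 -0.99. Without both CLP libraries of batch 2, Hbb-bs was at -1.54, Hbb-bt -0.63, Hba-a1 -1.67 and Hba-a2 -1.01. Without the haemoglobin-rich pair Hbb-bs was at -0.074 and Hba-a1 at -0.089, and in batch 2 alone Fech was at 0.48.

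Leaving out each library in turn, LMPP against CLP ranged from -0.82 to 2.01 for Hbb-bs, -0.75 to 1.51 for Hbb-bt, -0.91 to 1.72 for Hba-a1 and -1.01 to 1.39 for Hba-a2. It ranged from -0.058 to 0.66 for Alas1, -0.64 to 1.0 for Alas2, -0.28 to 0.20 for Alad and -0.38 to 0.85 for Fech. LMPP against GMP ranged from -0.51 to 0.72 for Fech, and CLP against GMP from -0.25 to 2.93 for Hbb-bs, -0.11 to 2.71 for Hba-a1 and -0.53 to 0.052 for Fech. Members whose difference depended on the batch numbered 0 to 1 in LMPP against CLP, 0 to 1 in LMPP against GMP and 0 to 5 in CLP against GMP.

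The count of members whose difference depended on the batch was 0 in CLP against GMP with no filter on low values and 2 in LMPP against CLP without the haemoglobin-rich pair. The r with the globins was 0.441 in batch 1, 0.985 in batch 2 and 0.649 outside the pair in LMPP and CLP for Alas2, -0.44 outside the pair for Alas1, and -0.274 in batch 1 and -0.139 outside the pair for Alad. The settings without both CLP libraries of batch 2, all those of the batch dependence, and the relation of Alas1 within LMPP and CLP were chosen after seeing the data.

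Depth is unknown from TPM, so low values such as Alas2 at 0.08 TPM in GMP carry an unknown counting error. With 4 libraries a type and a spread of the globins over several orders of magnitude, intervals of their differences reach both directions.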

Other observations

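The 4 globins made up 2.81% of all TPM in LMPP batch 2 replicate 1 and 1.34% in CLP batch 2 replicate 1, and 0.0183% to 0.116% in the other LMPP libraries and 0.00357% to 0.244% in the other CLP libraries. In GMP they made up 0.00426% to 0.127%. Rescaling TPM without the globins changed no member call between types.

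Both forms of the first haem enzyme together, Alas1 plus Alas2, summed to 155 to 256 TPM in GMP, where nearly all was Alas1. The sum was 151 TPM in LMPP batch 2 replicate 1, of which Alas2 was 126 TPM, and 19.0 to 38.1 TPM in the other LMPP libraries. In CLP it was 79.9 TPM in batch 2 replicate 1 and 20.5 to 23 TPM in the others. Hbq1b, at 18.8 TPM in CLP batch 2 replicate 2, was the globin gene whose highest value lay outside the haemoglobin-rich pair.

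Tfrc, the transferrin receptor through which cells take up iron, stood at 98.4 and 97.7 TPM in the haemoglobin-rich pair and at 98.3 TPM in CLP batch 1 replicate 1, which had 540.3 TPM of globin. It was at 24.9 to 51.1 TPM in the other LMPP libraries, 65.6 to 98.3 TPM in the other CLP libraries and 32.3 to 59.7 TPM in GMP, and was not called in any comparison (limma adjusted p 0.0527 to 0.956).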
